A study of Mus musculus with 6 samples.

Results

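Aminoacyl-tRNA synthetases load each tRNA with its amino acid, and mammals have one set of these enzymes for the cytosol and another for the mitochondria. Of the 21456 genes in the deposited table of WATs (white adipose tissues), 36 were taken by symbol as synthetase genes. The 16 genes whose symbol ends in 2 formed the mitochondrial class and the other 20 the cytosolic class. All 36 had a mean of at least 10 normalized counts and were among the 16157 genes tested. A normalized count here is the read count of a gene divided by 1 size factor per mouse.

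The tissue came from 2 groups on a chow diet, 3 control mice with the genotype Ntsr2 flox/flox and 3 mice named Ntsr2 AKO with the genotype Adipoq-cre::Ntsr2 flox/flox, numbered 3, 4 and 5 in each group. Both genotypes carry the floxed allele, and only the Ntsr2 AKO mice carry the Cre, whose Adipoq promoter is active in adipocytes of white and brown fat. The RNA came from whole tissue, so transcripts of other cells were measured as well, and the labels name neither the fat depot nor the age of the mice. Nothing further describes the mice as litters or batches, and p-values measure the spread between these 6 mice.

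Ntsr2, the receptor of neurotensin, had 83.8, 64.0 and 152.5 normalized counts in control mice, against 3.10, 8.29 and 0 in Ntsr2 AKO mice. Recovered reads per mouse ranged from 54085088 to 66098226. The 8 adipocyte markers together had between 1089800 and 1600810 normalized counts in every mouse. The 8 skeletal muscle markers together had 937, 411 and 2567830 normalized counts in control 3, 4 and 5, and 1452, 78753 and 175084 in the Ntsr2 AKO mice with the same numbers. Control 5 and Ntsr2 AKO 4 and 5 thus stood apart from the other mice, and class counts, class medians and the log2 fold changes of the members described by mouse are also given below without them. With 2 control mice and 1 Ntsr2 AKO mouse left, those values carry no test. Of the 4 brown or beige adipocyte markers, 3 were tested, and all 3 were higher in Ntsr2 AKO mice on the log2 scale. The 4 together had 2146, 4402 and 3405 normalized counts in control mice and 4565, 5223 and 6586 in Ntsr2 AKO mice, without overlap. Ucp1, 1 of the 4, added little to these sums and overlapped, with 0, 55.7 and 18.2 against 28.9, 42.5 and 36.4. No share over sums of other genes was computed. Macrophage markers, 3 of 3 lower in Ntsr2 AKO mice on the log2 scale, ranged from 9298 to 19981 in control and from 9890 to 15471 in Ntsr2 AKO mice. The part of these cell types in the results was not tested.

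As background, each cytosolic synthetase charges its tRNA in an ATP-dependent reaction, and the charged tRNA is passed to the ribosome. Several cytosolic synthetases are held with scaffold proteins in the multi-tRNA synthetase complex. When amino acids run short or the unfolded protein response is active, translation slows and the transcription factor ATF4 is made, and many cytosolic synthetase genes are known targets of ATF4. The mitochondrial enzymes are also encoded in the nucleus, imported, and used for the few proteins translated from mitochondrial DNA. Gars and Kars each give rise to both a cytosolic and a mitochondrial enzyme and were kept in the cytosolic class.

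ATF4 acts with C/EBP partners at a composite element whose core was searched here as TGATGNAA. Promoter windows, from 250 bases before to 50 bases after the RefSeq start (GRCm38.p6), were found for 26 of the 36 genes. Cars, Hars, Lars, Mars, Nars, Rars, Vars, Wars, Hars2 and Pars2 had no entry. On either strand, the core was present in 5 of 12 cytosolic windows (41.7%) and in 0 of 14 mitochondrial windows, and in 4.51% of the windows of all 27025 genes. A match is shown for each of Aars, Gars, Iars, Tars and Yars because these cytosolic genes share the core with no mitochondrial member that had a window. They are given on the strand of the gene with the core in capitals, and all but that of Yars hold it on the opposite strand.
Aars, chr8:111033840-111033869, + strand: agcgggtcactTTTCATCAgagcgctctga
Gars, chr6:55037960-55037989, + strand: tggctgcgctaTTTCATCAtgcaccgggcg
Iars, chr13:49682126-49682155, + strand: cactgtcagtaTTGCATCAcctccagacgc
Tars, chr15:11399655-11399684, - strand: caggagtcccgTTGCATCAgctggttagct
Yars, chr4:129189895-129189924, + strand: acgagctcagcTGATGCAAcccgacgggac

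Counted from the start, the first base of the core lay at -30 in Gars and at -15 in Tars. It lay after the start in the Aars match shown (base 10), in Iars (base 8) and in Yars (base 4). NRF1 is a transcription factor of nuclear genes for mitochondrial proteins, and its core was searched as GCGCATGCG. It was found in 2 of 14 mitochondrial windows, those of Vars2 and Wars2, in 0 of 12 cytosolic windows and in 1.95% of all windows. These windows are shown as the mitochondrial counterpart, with the core in capitals on the strand of the gene, and CGCATGCGC is the core on the opposite strand.
Vars2, chr17:35667620-35667649, - strand: gagtcttttaCGCATGCGCctgcgtgtccc
Vars2, chr17:35667594-35667623, - strand: tccccgcccaCGCATGCGCgcgcacctcgc
Wars2, chr3:99141016-99141045, + strand: cagaggacagGCGCATGCGtagtaagcaca

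A match of these letters is a description and does not show that a factor binds. The 250 bases before the start are given for Tars, which holds the ATF4 core near its start, and for Aars2, which holds neither core, so that a cytosolic and a mitochondrial promoter can be read side by side.
Tars, chr15:11399659-11399908, - strand, 57.6% G and C: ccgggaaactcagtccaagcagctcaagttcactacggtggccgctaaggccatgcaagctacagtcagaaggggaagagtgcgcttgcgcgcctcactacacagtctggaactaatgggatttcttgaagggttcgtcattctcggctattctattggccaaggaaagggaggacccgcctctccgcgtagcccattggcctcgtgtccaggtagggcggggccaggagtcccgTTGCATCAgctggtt
Aars2, chr17:45506591-45506840, + strand, 50.8% G and C: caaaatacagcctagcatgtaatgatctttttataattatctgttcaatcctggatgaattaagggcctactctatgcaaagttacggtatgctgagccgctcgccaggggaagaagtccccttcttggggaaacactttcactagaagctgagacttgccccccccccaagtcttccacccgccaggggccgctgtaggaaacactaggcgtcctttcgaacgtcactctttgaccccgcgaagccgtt

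The first comparison asked whether the genes for the 2 sets of synthetases moved together when Ntsr2 was lost from adipocytes. All 20 cytosolic genes had a lower mean on the log2(normalized count + 1) scale in Ntsr2 AKO WATs, with log2 fold changes from -0.71 (Iars) to -0.01 (Qars) and a median of -0.35. Of the 16 mitochondrial genes, 7 were lower and 9 higher, from -0.41 (Mars2) to 0.48 (Lars2), with a median of 0.01. Over all genes tested, 51.0% were lower and the median was -0.01. These numbers describe the 2 classes, and no p-value was computed for a class. In bulk tissue, fewer cells of a type and less RNA per cell cannot be told apart.

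No synthetase passed an adjusted p of 0.05 in limma, in edgeR or in DESeq2. In limma the adjusted p ranged from 0.52 to 0.99 in the cytosolic and from 0.59 to 0.99 in the mitochondrial class, and 0.00619% of all genes (1 gene) passed. In DESeq2, where 1.50% of the genes with an adjusted p passed, the cytosolic adjusted p ranged from 0.15 to 0.996. At an unadjusted limma p under 0.05, 12 of 20 cytosolic genes were lower and 0 higher, against 5.27% of all genes lower and 3.08% higher. These were Aars, Cars, Eprs, Farsa, Farsb, Iars, Nars, Rars, Tars, Vars, Wars and Yars, and edgeR also gave 12 (8.19% of all genes in either direction). Of the mitochondrial genes, 1 (Yars2) was lower at that p in limma, and edgeR gave 0.

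In 13 cytosolic genes, those 12 and Hars, every Ntsr2 AKO mouse lay below every control mouse, against 8.16% of all genes. Among mitochondrial genes, 2 (Tars2 and Yars2) had every Ntsr2 AKO mouse below the controls, and 1 (Pars2) had every one above them, where the share of all genes was 6.82%. The count of 12 depended on single mice. It was 1 without Ntsr2 AKO 4, 4 without Ntsr2 AKO 5, 5 without control 5 and 13 without Ntsr2 AKO 3. With the skeletal muscle markers as a covariate, 10 cytosolic genes were lower at an unadjusted p under 0.05 and the cytosolic median was -0.35. Among the mice with few skeletal muscle transcripts (control 3, control 4 and Ntsr2 AKO 3), 14 of 20 cytosolic genes were lower, and the median was -0.12. Ntsr2 AKO 3 was below both of these controls in 13 cytosolic genes, against 27.9% of all genes. Of the 16 mitochondrial genes, 9 were lower among these mice, with a median of -0.03.

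**Figure D1:**
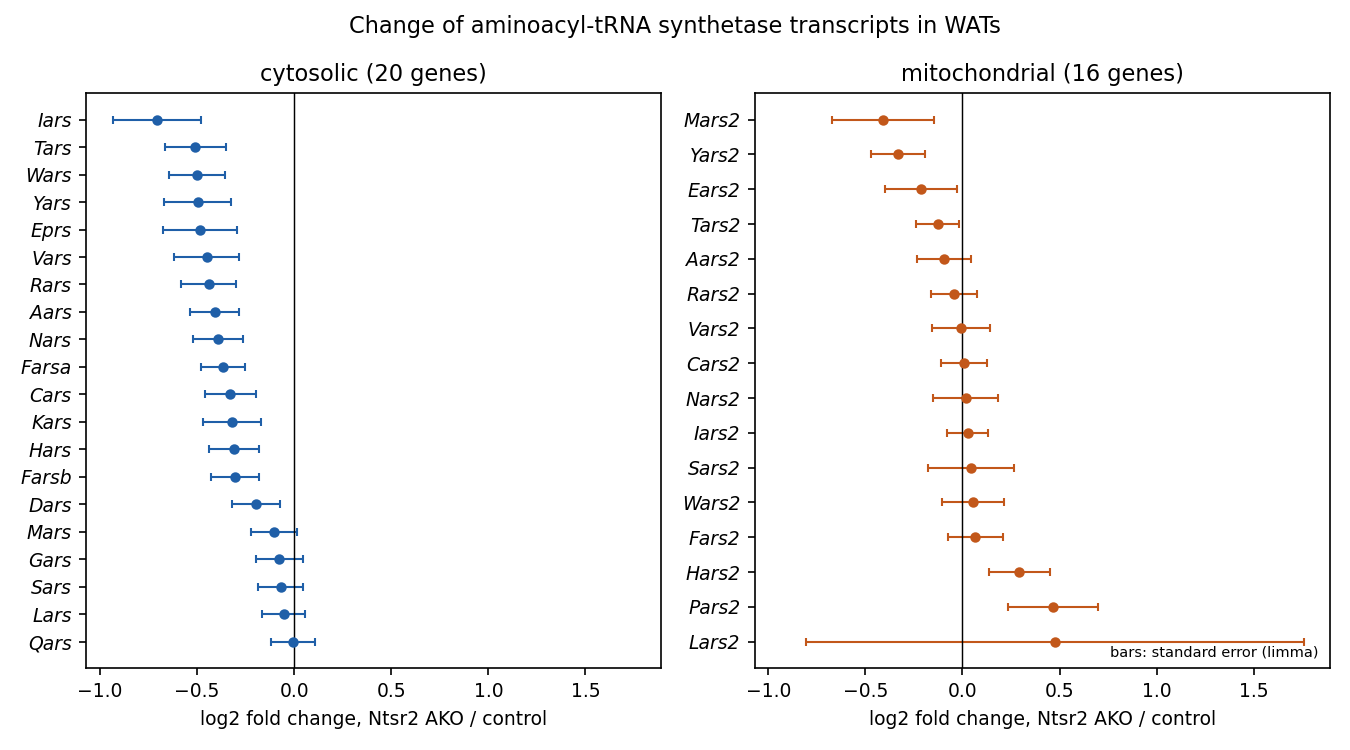
Log2 fold change of Ntsr2 AKO against control mice (x axis) for each of the 20 cytosolic and 16 mitochondrial synthetase genes (y axis), with bars for the limma standard error over 3 mice per group. All 20 cytosolic points lie below 0, the mitochondrial points lie on both sides of it, and Lars2 has by far the widest bar.

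Per mouse, the class level was taken as the mean over genes of log2(normalized count + 1) after subtraction of the mean of each gene over the 6 mice. The cytosolic level was 0.07, 0.12 and 0.30 in control 3, 4 and 5, and -0.01, -0.22 and -0.26 in Ntsr2 AKO 3, 4 and 5. The lowest control was thus above the highest Ntsr2 AKO mouse, and Ntsr2 AKO 3 lay close to control 3. The group means were 0.16 ± 0.12 and -0.16 ± 0.13 (SD, n = 3 each), a difference of -0.33. Of the 20 genes, 4, 3 and 0 were below their own mean in controls, against 11, 17 and 20 in Ntsr2 AKO mice.

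The level of the mitochondrial class, taken over 15 genes without Lars2, was 0.00, 0.02 and 0.01 in controls, against 0.03, -0.03 and -0.02 in Ntsr2 AKO mice. Its groups overlapped and differed by -0.02. The cytosolic level minus this mitochondrial level was 0.07, 0.10 and 0.29 in control mice and -0.04, -0.19 and -0.23 in Ntsr2 AKO mice. This within-mouse difference does not depend on the size factor. It was highest in control 5, the mouse with the most skeletal muscle transcripts, and lowest in Ntsr2 AKO 5 and 4, which had the next most. The part of skeletal muscle in the result was not tested beyond the values above.

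**Figure D2:**
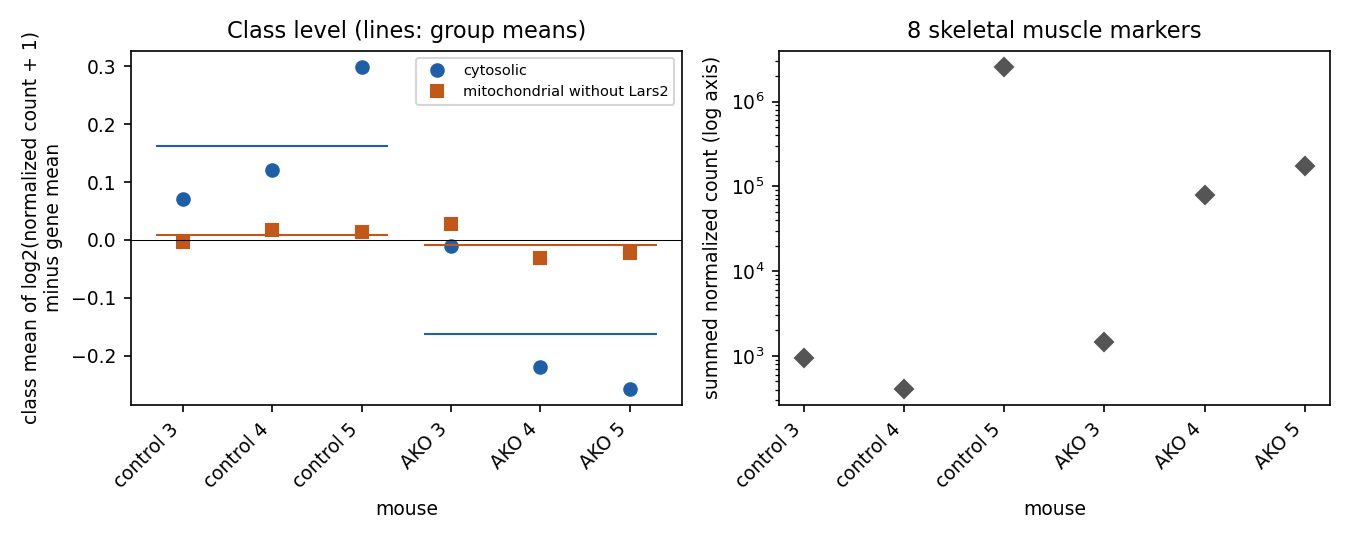
Left, mean level of the cytosolic class (20 genes) and of the mitochondrial class without Lars2 (15 genes) in each mouse, as log2(normalized count + 1) minus the mean of each gene, with lines for the group means. Right, summed normalized counts of 8 skeletal muscle markers in the same mice on a log axis, where control 5 reaches 2567830 and control 3, control 4 and Ntsr2 AKO 3 stay at or below 1452.

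**Figure D3:**
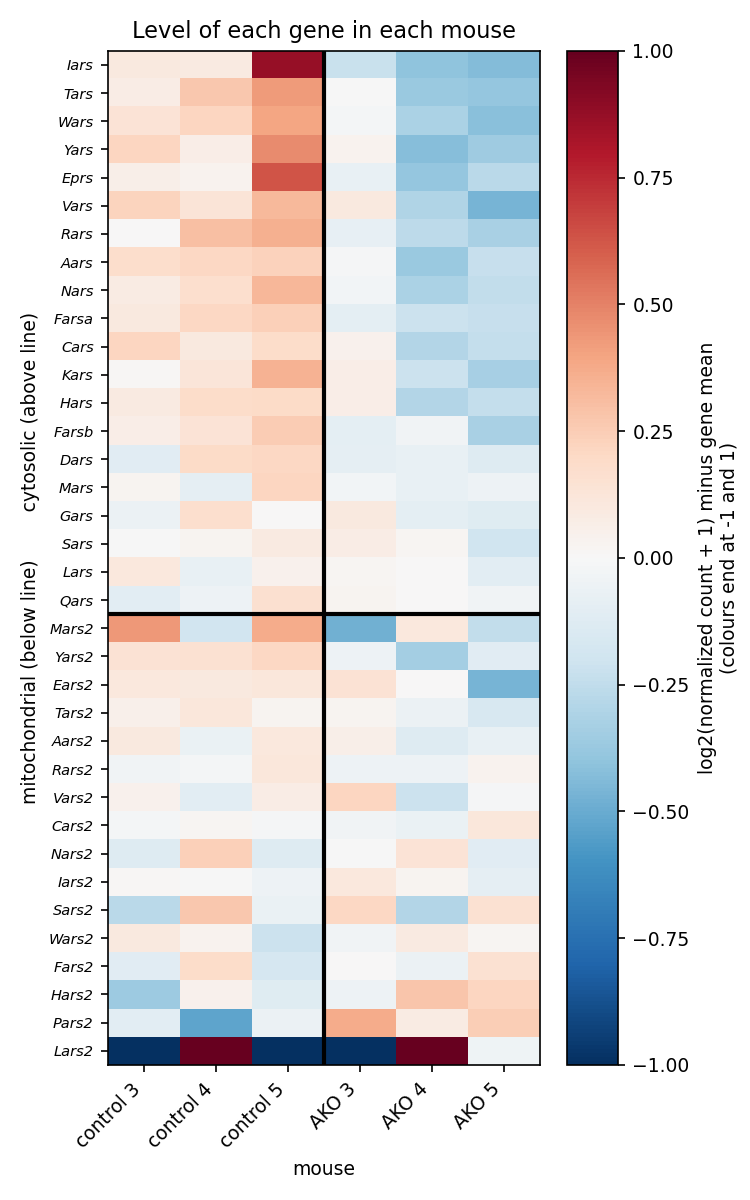
Level of each of the 36 genes (vertical axis) in each of the 6 mice (horizontal axis), as colour for log2(normalized count + 1) minus the mean of the gene, with colours ending at -1 and 1. The cytosolic block above the line is mostly red in control and blue in Ntsr2 AKO mice, with the palest Ntsr2 AKO column in mouse 3, and the mitochondrial block shows no such split.

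The 6 members of each class with the smallest limma p are described mouse by mouse, always in the order 3, 4, 5, with gene positions on GRCm38 (mm10) from GENCODE. Wars (chr12:108860030-108894174, - strand), the tryptophanyl-tRNA synthetase, had 2816, 2966 and 3360 normalized counts in control mice and 2521, 2056 and 1915 in Ntsr2 AKO mice. The groups did not overlap, and the mean was lower by 29.0% (log2 fold change -0.50, SE 0.14, limma adjusted p 0.52). Aars (chr8:111033144-111057664, + strand), which charges alanine and holds the ATF4 core, had 5975, 6087 and 6216 against 5247, 4086 and 4497. The 3 control mice lay close together and above every Ntsr2 AKO mouse, and the difference was -0.41 on the log2 scale (SE 0.12, limma adjusted p 0.52).

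Tars (chr15:11382301-11399665, - strand), the threonyl-tRNA synthetase, had 3433, 3934 and 4377 normalized counts in control mice and 3257, 2524 and 2499 in Ntsr2 AKO mice. Ntsr2 AKO 3 lay just below control 3, and the log2 fold change was -0.51 (SE 0.16, limma adjusted p 0.52). Farsa (chr8:84856989-84869257, + strand), the catalytic alpha subunit of the phenylalanyl-tRNA synthetase, had 1576, 1699 and 1732 against 1373, 1265 and 1249. The spread within each group was small and the groups were apart, with a log2 fold change of -0.37 (SE 0.11, limma adjusted p 0.52). Farsb, the beta subunit of the same enzyme, had a log2 fold change of -0.30 (SE 0.13).

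Rars (chr11:35808381-35834506, - strand), which charges arginine within the multi-tRNA synthetase complex, had 2300, 2821 and 2941 normalized counts in control mice and 2171, 1914 and 1837 in Ntsr2 AKO mice. The lowest control was only slightly above the highest Ntsr2 AKO mouse, and the log2 fold change was -0.44 (SE 0.14, limma adjusted p 0.55). Iars (chr13:49682100-49734267, + strand), the isoleucyl-tRNA synthetase of the same complex, had 2035, 2019 and 3483 against 1626, 1438 and 1408. Control 5 stood far above the other controls, and the log2 fold change of -0.71 (SE 0.23, limma adjusted p 0.55) was -0.45 without it.

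Eprs, a single protein that charges both glutamate and proline, was likewise highest in control 5 (11246 normalized counts, against 7552 and 7453 in the other controls and 6913, 5567 and 6008 in Ntsr2 AKO mice). It was examined after its values were seen. Its log2 fold change of -0.48 (SE 0.19) became -0.29 without control 5. Among the mice with few skeletal muscle transcripts, the log2 fold changes were -0.20 for Wars, -0.20 for Aars, -0.17 for Tars, -0.25 for Farsa, -0.23 for Rars, -0.32 for Iars and -0.12 for Eprs. Each kept its sign there and was smaller than over all 6 mice.

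Gars and Kars, the glycyl- and lysyl-tRNA synthetases that serve both compartments, are given apart. Gars had 5588, 6546 and 5846 normalized counts in control mice and 6244, 5453 and 5361 in Ntsr2 AKO mice. The groups overlapped, and the log2 fold change of -0.08 (SE 0.12) was smaller than its error. It turned to 0.03 under quantile normalization and to 0.05 among the mice with few skeletal muscle transcripts. Kars had 4427, 4771 and 5584 against 4598, 3789 and 3486. Ntsr2 AKO 3 lay between control 3 and control 4, and the log2 fold change was -0.32 (SE 0.15, limma adjusted p 0.62). Among the mice with few skeletal muscle transcripts it was 0.00, so no difference was left there.

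The remaining cytosolic members formed a graded series. Yars (-0.50), Vars (-0.45), Nars (-0.39), Cars (-0.33) and Hars (-0.31), which charge tyrosine, valine, asparagine, cysteine and histidine, did not overlap between the groups. In the mice with few skeletal muscle transcripts they stood at -0.10, -0.08, -0.15, -0.11 and -0.07. Dars (-0.20), Mars (-0.10), Sars (-0.07), Lars (-0.05) and Qars (-0.01), for aspartate, methionine, serine, leucine and glutamine, overlapped. The differences of the last 4 were smaller than their standard errors of 0.11 to 0.12. The cytosolic class therefore held both genes with a difference of several standard errors and genes with none that could be measured at this number of mice.

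Among the mitochondrial members, Yars2 (chr16:16302965-16309640, + strand), the tyrosyl-tRNA synthetase, had 883, 888 and 926 normalized counts in control mice and 773, 633 and 740 in Ntsr2 AKO mice. The groups did not overlap, and the log2 fold change was -0.33 (SE 0.14, limma adjusted p 0.59). Pars2 (chr4:106651069-106655282, + strand), the prolyl-tRNA synthetase, had 179, 133 and 184 against 249, 204 and 228. Here all control values lay below all Ntsr2 AKO values (log2 fold change 0.46, SE 0.23, limma adjusted p 0.62).

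Hars2, which charges histidine, had 1301, 1725 and 1543 normalized counts in control mice and 1612, 2033 and 1940 in Ntsr2 AKO mice. Ntsr2 AKO 3 fell within the control range, and the log2 fold change was 0.29 (SE 0.16, limma adjusted p 0.64). Mars2 (chr1:55237177-55248470, + strand), the methionyl-tRNA synthetase, had 365, 236 and 348 against 193, 290 and 228. Its groups overlapped, with a log2 fold change of -0.41 (SE 0.26, limma adjusted p 0.69).

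Tars2 (chr3:95739976-95760206, - strand), for threonine, had 1883, 1968 and 1859 normalized counts in control mice and 1856, 1749 and 1626 in Ntsr2 AKO mice. The groups touched without overlap at 1859 and 1856, and the log2 fold change was -0.13 (SE 0.11, limma adjusted p 0.77). Ears2 (chr7:122037213-122067263, - strand), for glutamate, had 791, 787 and 797 against 811, 737 and 531. Only Ntsr2 AKO 5 was far from the rest, and the log2 fold change was -0.21 (SE 0.19, limma adjusted p 0.77). The other 9 mitochondrial genes without Lars2 (Aars2, Cars2, Fars2, Iars2, Nars2, Rars2, Sars2, Vars2 and Wars2) lay between -0.09 (Aars2) and 0.07 (Fars2), and all 9 overlapped between the groups. In the mice with few skeletal muscle transcripts, Yars2 (-0.20), Pars2 (0.69), Hars2 (0.11), Mars2 (-0.60) and Tars2 (-0.05) kept their sign and Ears2 (0.04) did not.

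Lars2 (chr9:123366927-123462666, + strand), the mitochondrial leucyl-tRNA synthetase, stood apart from every other member, and its values are given although the rule for naming genes did not select it. It had 4474, 60312 and 5700 normalized counts in control mice and 4442, 70572 and 13201 in Ntsr2 AKO mice. The high values thus occurred in mouse 4 of both groups, and the log2 fold change of 0.48 had an SE of 1.28 and became -1.89 among the mice with few skeletal muscle transcripts. Rn7sk, a small nuclear RNA without a poly(A) tail, had 111, 1294 and 203 normalized counts in control and 270, 1849 and 904 in Ntsr2 AKO mice. Rmrp, the RNA of a ribonuclease, had 4.60, 393 and 62.4 against 64.0, 1856 and 199. Both were highest in the same 2 mice as Lars2, and both were chosen after their values were seen. Their part in the Lars2 values was not tested, and the level of Lars2 is uncertain.

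**Figure D4:**
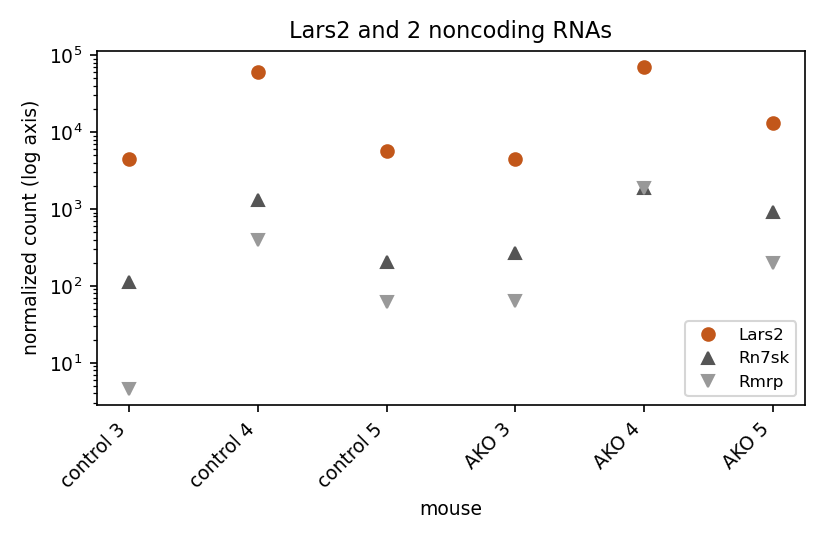
Normalized counts of Lars2, Rn7sk and Rmrp (log axis) in each of the 6 mice. All 3 genes are highest in control 4 and Ntsr2 AKO 4, where Lars2 reaches 60312 and 70572.

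Without control 4 and Ntsr2 AKO 4, 19 of 20 cytosolic genes were lower, 1 of them at an unadjusted p under 0.05, and the mitochondrial median was 0.05. Gars was the exception in direction, at 0.02.

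The next comparison took each amino acid on its own, as the log2 ratio of its cytosolic to its mitochondrial synthetase in each mouse. Such a ratio of genes within a mouse is free of the size factor. Of 16 pairs, the ratio was lower in Ntsr2 AKO mice in 15 and higher in 1 (methionine, by 0.31), with a median difference of -0.40. In 9 pairs the groups did not overlap. No share over ratios of other genes was computed, so this count has no background. Among the mice with few skeletal muscle transcripts, the ratio in Ntsr2 AKO 3 was below both controls in 10 pairs. It was above both for methionine (3.63 against 2.77 and 3.28) and tyrosine (1.72 against 1.71 and 1.55). These counts have no background either. Over all mice, each of the 9 pairs without overlap had an exact permutation p of 0.10 (two-sided, 0.18 after Benjamini-Hochberg adjustment over 16 pairs). That is the smallest p that 3 against 3 mice allow, so this design could not reach 0.05.

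The proline pair had the largest shift, with log2(Eprs/Pars2) of 5.39, 5.80 and 5.92 in control mice and 4.79, 4.76 and 4.72 in Ntsr2 AKO mice. Here Eprs was lower and Pars2 higher, and the difference was -0.95. For isoleucine, log2(Iars/Iars2) was -1.80, -1.80 and -0.96 against -2.22, -2.32 and -2.23, a difference of -0.73 to which control 5 contributed most. For tryptophan, log2(Wars/Wars2) was 2.38, 2.52 and 2.95 against 2.35, 1.94 and 1.90. Ntsr2 AKO 3 was just below control 3, and the difference was -0.55.

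For valine, log2(Vars/Vars2) was 1.05, 1.10 and 1.12 in control mice and 0.75, 0.78 and 0.41 in Ntsr2 AKO mice. The controls were within an SD of 0.04 and the difference was -0.44. For alanine, log2(Aars/Aars2) was 2.94, 3.14 and 2.99 against 2.80, 2.62 and 2.71, with a difference of -0.32. The other pairs without overlap were histidine (-0.60), phenylalanine (-0.43), arginine (-0.40) and threonine (-0.38).

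In the histidine pair the genes lie head to head on chromosome 18 and overlap by 198 bases, and the library kit does not mark strand, so reads in the overlap cannot be assigned to one gene. In the annotation, 8.0% of the exonic bases of Hars and 4.6% of those of Hars2 lie in exons of the other. Of the other members, Iars2 (24.2%), Fars2 (10.7%), Farsb (9.5%) and Vars2 (8.5%) share the most exonic bases with genes on the opposite strand, and Aars shares 14.3% with Exosc6 on its own strand. These are shares of annotated bases and not of reads, so their levels are uncertain to an extent that was not measured. The pairs of asparagine (-0.41), cysteine (-0.34), glutamate (-0.27), tyrosine (-0.16) and serine (-0.11) overlapped between the groups. So did leucine (-0.53), whose ratio ranged from -4.76 to -0.83 in control mice, as Lars2 varied. The glutamate and proline pairs share Eprs and are not independent.

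**Figure D5:**
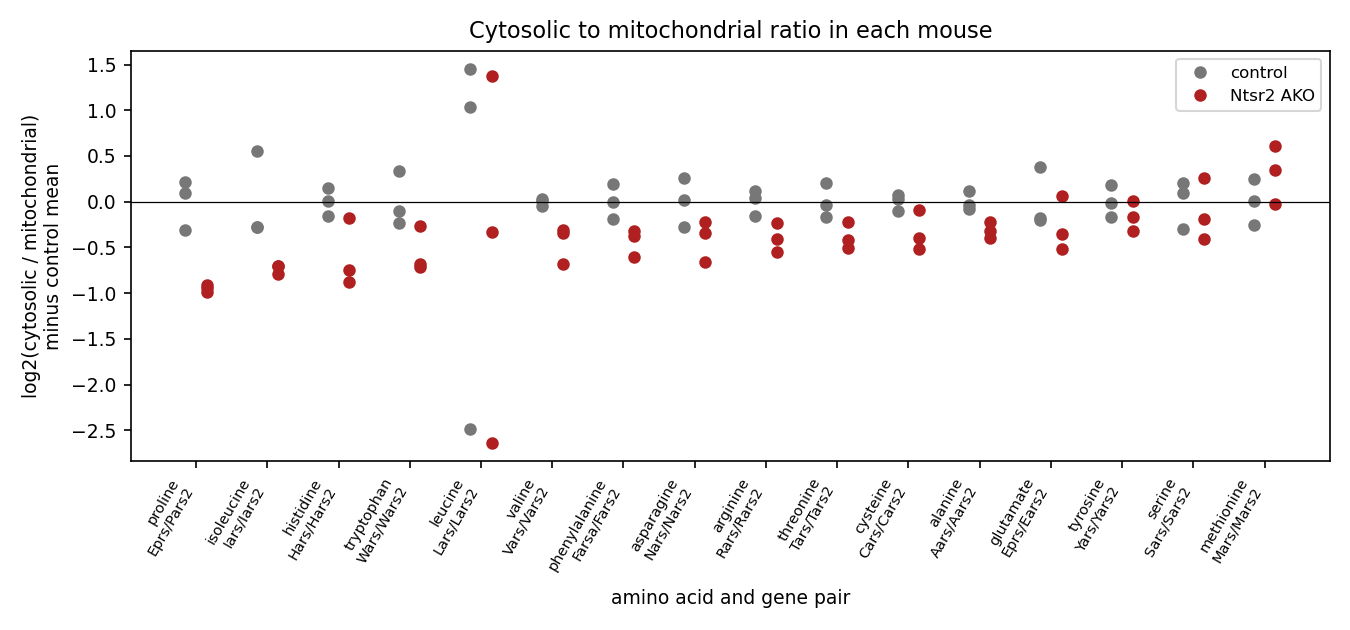
Log2 ratio of the cytosolic to the mitochondrial synthetase minus its control mean (y axis) for 16 amino acid pairs (x axis, ordered by the difference), with 1 point per mouse in control (grey) and Ntsr2 AKO (red). In 9 pairs all red points lie below all grey points, and for leucine the points of both groups spread over more than any other pair.

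The cytosolic class was then divided by what is known of its members. The 12 genes commonly listed as ATF4 targets (Aars, Cars, Eprs, Gars, Iars, Lars, Mars, Nars, Sars, Tars, Wars and Yars) had a median log2 fold change of -0.40, and 8 of them were lower at an unadjusted limma p under 0.05. The other 8 had a median of -0.31, and 4 were lower at that p. Over all genes, 5.27% were lower at that p. Both counts are parts of the cytosolic count of 12, which ranged from 1 to 13 when each mouse was left out. The difference between these lists was not tested. Both medians are over all mice. With few skeletal muscle transcripts, the first list ranged from -0.32 (Iars) to 0.06 (Sars). The other 8 ranged there from -0.25 (Farsa) to 0.10 (Qars), so the lists overlapped. All 5 genes with the ATF4 core in their window belong to the first list, with a median of -0.50, and the 7 cytosolic genes with a window and no core had a median of -0.30. Gars, with a core, overlapped between the groups, while Farsa and Farsb, without one, did not. The medians by core are over all mice as well. With few skeletal muscle transcripts, genes with a core ranged from -0.32 (Iars) to 0.05 (Gars). Those with a window and no core ranged there from -0.25 (Farsa) to 0.10 (Qars).

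The 8 synthetases of the multi-tRNA synthetase complex (Dars, Eprs, Iars, Kars, Lars, Mars, Qars and Rars) had a median of -0.26, with 3 lower at an unadjusted limma p under 0.05. The 12 cytosolic genes outside it had a median of -0.38, with 9 lower at that p. Over all genes, 5.27% were lower at that p. These counts too are parts of the cytosolic count, which ranged from 1 to 13 when each mouse was left out. The difference between complex and other members was not tested. With few skeletal muscle transcripts, the complex members ranged from -0.32 (Iars) to 0.10 (Qars). Those outside it ranged there from -0.25 (Farsa) to 0.06 (Sars). Of the scaffold proteins, Aimp1 (0.00) and Eef1e1 (-0.06) differed little. Aimp2 had 583, 694 and 1715 normalized counts in control mice and 471, 427 and 539 in Ntsr2 AKO mice, so that every Ntsr2 AKO mouse was below the controls while control 5 stood far above them.

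Among 15 other genes that act on tRNA charging, 6 were lower and 9 higher, with a median of 0.06 and 1 past an unadjusted limma p of 0.05 (higher, against 3.08% of all genes), a share near the background. That gene, Pstk, the kinase that acts on seryl-tRNA on the way to selenocysteine, had 572, 487 and 680 normalized counts in control mice, against 716, 793 and 1003 (log2 fold change 0.53, SE 0.20, limma adjusted p 0.57). Mtfmt, which formylates the mitochondrial initiator tRNA, had 640, 645 and 642 against 643, 933 and 888, with Ntsr2 AKO 3 near the controls. Gatb was not analysed here. Tarsl2, a paralog of Tars in the cytosol, was named after its values were seen, as it had 1839 in control 5 and between 289 and 570 in the other 5 mice.

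The ATF4 response outside the synthetases was followed in 16 genes, of which 12 were lower and 4 higher, with a median of -0.29. At an unadjusted p under 0.05, limma gave 4 lower (5.27% of all genes) and 0 higher (3.08%) and edgeR 3 in either direction (8.19%), and 0 passed an adjusted p of 0.05 in limma, edgeR or DESeq2. Atf4 itself had 11264, 8919 and 10675 normalized counts in control mice and 8725, 7386 and 6002 in Ntsr2 AKO mice. All Ntsr2 AKO mice were below all controls, with a log2 fold change of -0.49 (SE 0.17, limma adjusted p 0.56), and Atf4 was the only gene of the 16 without overlap, a share near the 8.16% of all genes.

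Slc3a2, the heavy chain of amino acid transporters, had 7933, 8088 and 6728 normalized counts in control mice, against 6858, 4669 and 4035 (log2 fold change -0.58). Ntsr2 AKO 3 lay above control 5, so these groups overlapped. Slc7a11, its cystine-transporting partner, had 58.9, 16.5 and 25.9 against 16.5, 0 and 0, few reads for a fold change. Asns, the asparagine synthetase and a well-known ATF4 target, was named after its values were seen and had 6030, 4473 and 5115 against 5216, 4956 and 3269, with overlap (-0.24).

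Levels between genes can be compared only per length, here as control normalized counts per kilobase of the longest annotated transcript. On that scale the cytosolic genes had a median of 1175, from 568 (Iars) to 2518 (Gars). The mitochondrial genes without Lars2 had a median of 320, from 28.0 (Mars2) to 1273 (Iars2). The 2 ranges overlapped, and the length of the transcript used in fat may differ from the longest one.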

How the data were processed

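Per the labels, HISAT2 and StringTie were used with the mm10 build. The methods of the study name poly(A) selection, a kit that does not mark strand, Trimmomatic and DESeq2, and the annotation and versions are not given in the sources used here. What the authors deposited is a signal unit, normalized counts, each the read count of a gene over the size factor of that mouse. Division by the step of each column gave whole reads for 100% of values (tolerance 0.001), with totals of 60641491, 60405373 and 66098226 in control mice and 54679805, 54085088 and 56268725 in Ntsr2 AKO mice. At this depth the number of mice limits the precision more than counting error for the synthetases.

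Genes with a mean of at least 10 were tested as log2(normalized count + 1) with limma 3.58.1 (mean-variance trend, two-sided, no covariates, R 4.3.3), with Benjamini-Hochberg adjustment over 16157 genes and a threshold of 0.05. On the recovered reads, edgeR 4.0.16 (quasi-likelihood test, TMM) and DESeq2 1.42.0 served as alternatives. Fold changes on this scale understate those of low genes. Pair ratios were compared by exact permutation in SciPy 1.17.1. The scripts were tested on simulated data.

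Values by mouse are given for the 6 members per class with the smallest limma p and for Gars and Kars, and of each other list the 3 genes with the smallest p are named. The members and lists were chosen with earlier results of these data known. Positions and transcript lengths come from GENCODE M21 and promoters from RefSeq, both GRCm38. The proteins were not compared. Some items are not reported here.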

Additional observations from a re-analysis of the deposited data

How the results depend on the processing

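Among the mice with few skeletal muscle transcripts, the median log2 fold change of the cytosolic genes was -0.12. Over the other settings it ranged from -0.43 (without Ntsr2 AKO 3) to -0.27 (quantile normalization). The cytosolic count at an unadjusted p under 0.05 ranged from 1 to 13 when each mouse was left out in turn, and was 1 without control 4 and Ntsr2 AKO 4. It was 8 under quantile normalization and 8 in limma without the trend. Under quantile normalization, which moved the median of all genes to 0.05, 16 of 20 cytosolic genes were lower. The mitochondrial median was 0.052 under quantile normalization, -0.026 among the mice with few skeletal muscle transcripts and 0.047 without control 4 and Ntsr2 AKO 4, and ranged from -0.057 to 0.028 when each mouse was left out. The mitochondrial count of 1 became 0 with a pseudocount of 5, quantile normalization, the replicate block, edgeR and the skeletal muscle covariate, and ranged from 0 to 1 when each mouse was left out. The cause was not tested. Gars turned to 0.025 under quantile normalization and to 0.018 without control 4 and Ntsr2 AKO 4, and Lars2 ranged from -0.59 to 1.67 when each mouse was left out. Among the mice with few skeletal muscle transcripts, Gars turned to 0.046, Kars to 0.00080, Ears2 to 0.040 and Lars2 to -1.89, with no test. The other 261 of 270 alternative values of the 15 named genes kept their direction and, where tested, their side of the threshold, and the smallest adjusted p was 0.15.

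Mice with the same number did not deviate together in every pair (correlations 0.45, -0.24 and 0.41 for numbers 3, 4 and 5). The deviations of the mice of a group cancel out, so these correlations depend on each other and cannot decide whether the number marks a pairing. It was not taken as one in the main fit. Between mice of different numbers the correlations ranged from -0.52 to 0.26, below those of numbers 3 and 5. With the replicate block, 10 cytosolic genes were lower at an unadjusted p under 0.05 and 0 synthetases passed an adjusted p of 0.05 in limma. The alternatives with few skeletal muscle transcripts, without control 4 and Ntsr2 AKO 4 and with the muscle covariate were chosen after seeing the data. With 3 mice per group, differences as small as those of Gars, Lars or Qars could not be told from 0.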

Other observations

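The genes of mitochondrial content and translation gave the mitochondrial synthetases a setting. Of 16 such genes, 6 were lower and 10 higher in Ntsr2 AKO WATs, with a median log2 fold change of 0.04 and 1 past an unadjusted limma p of 0.05 (higher, against 3.08% of all genes), a share near the background. That gene, Mtif2, a mitochondrial translation initiation factor, had 1602, 1484 and 1598 normalized counts in control mice and 1792, 1998 and 1942 in Ntsr2 AKO mice, without overlap (log2 fold change 0.29, limma adjusted p 0.57). Tufm, the mitochondrial elongation factor Tu, lay the other way, with 5211, 5593 and 4995 against 4846, 4023 and 4344, also without overlap (-0.26). Of the 16 genes, 1 was thus higher and 1 lower without overlap. Over all genes these shares were 6.82% and 8.16%, so both counts were near the background. Gfm1, an elongation factor that moves the mitochondrial ribosome along, overlapped between the groups (-0.24). Neither the initiation nor the elongation factors passed an adjusted p of 0.05 in limma. In edgeR, 1 gene of the list passed an unadjusted p of 0.05, against 8.19% of all genes in either direction.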
